A study of Rattus norvegicus with 35 samples.

Results

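Untreated CM-enriched fractions were set against untreated cultures of fibroblasts from the same kind of hearts, to describe how the 2 populations differ before any stressor is applied. Of the 35 Affymetrix rat genome arrays (chip A of the RG-U34 set) of the series, 11 were used: those hybridised with RNA of sham-treated control cultures of the irradiation experiments. They are 3 arrays of CM-enriched fractions with sham-irradiation (CM IR) and 2 with sham-UV (CM UV), against 3 arrays of cultures of fibroblasts with sham-irradiation or 0 Gy (FB IR) and 3 with sham-UV (FB UV). No cell on these arrays was irradiated, and all cells came from ventricles of neonatal rat hearts. Sham treatment was at room temperature, and RNA of the CM-enriched fractions was isolated 24 hours later.

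The populations differ in more than cell type. The CM-enriched fractions were obtained by pre-plating, culture with horse serum and then centrifugal elutriation (sorting of trypsinised cells by sedimentation). The fibroblasts had been cultured for longer, to confluence, in medium with foetal bovine serum and were not elutriated. According to the methods, the CM-enriched fractions hold a minority of non-myocytes and the fibroblast cultures a few myocytes. In RNA of mixed cells, fewer cells of a type and less RNA per cell cannot be told apart.

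Cardiac myocytes contract through sarcomeres, in which myosin thick filaments slide along actin thin filaments that are anchored at Z-discs and switched on by calcium through troponin. Their energy comes largely from oxidation of fatty acids in mitochondria. Cardiac fibroblasts synthesise and remodel the extracellular matrix, of which fibrillar collagens are the main component, and respond to growth factors and angiotensin.

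All 6 fibroblast arrays and 1 CM array (CM UV, number 1) were deposited at a trimmed mean near 200.4, and the other 4 CM arrays near 1002, so each array was brought to a 75th percentile of 100 before log2 was taken. Values below give this scaled intensity after quantile normalisation, with a floor of 4.17 under which values have no order. This normalisation gives all arrays nearly the same set of values. Equal values therefore recur among the brightest probe-sets, and their differences are bounded at the top. The first principal component held 49.7% of the variance. The correlation between arrays (Spearman, over probe-sets) was 0.922 to 0.973 within a population and 0.864 to 0.917 between populations. FB IR number 3 stood apart from the other fibroblast arrays, with correlations of 0.922 to 0.934 with them against 0.945 to 0.973 among the others. Scan records, where they were read, put 3 CM arrays on 1 scan day and 2 fibroblast arrays on another. Scan day and population cannot be told apart there.

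Of 8740 probe-sets tested with limma, with the experiment (IR or UV) as a block, CM-enriched fractions had 1221 (14.0%) higher and 1324 (15.1%) lower than fibroblasts at an adjusted p under 0.05. At 0.005, the level of the study, these numbers were 669 (7.65%) and 644 (7.37%). Among the probe-sets called at 0.05, 685 (7.84%) were at least 2-fold higher and 668 (7.64%) at least 2-fold lower. At least 4-fold were 418 (4.78%), 239 (2.73%) higher and 179 (2.05%) lower, and at least 8-fold were 93 (1.06%) higher and 37 (0.423%) lower. All 5 CM arrays lay above all 6 fibroblast arrays for 802 probe-sets (9.18%) and below them for 763 (8.73%). Without FB IR number 3, 1278 probe-sets were higher and 1472 lower. With CM UV number 1 as the only CM array, which was deposited at the same scaling as the fibroblasts, 566 were higher and 421 lower, in a fit whose spread comes from the fibroblast arrays alone. Log2 differences below are CM-enriched fractions over cultures of fibroblasts, with the standard error (SE) of the fit, and each gene is shown through the brightest of its probe-sets unless another is named. For Cnn3, Id3, Igf1, Itpr1, Kcnd3, Mmp2, Npr3, Pdgfra, Tnc and Wt1, given below as called, at least 1 dimmer probe-set was not called.

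The labels were checked with markers of both cell types. All 9 myocyte markers on the array were higher in CM-enriched fractions and all 10 fibroblast markers were lower. By their brightest probe-sets Thy1, Lum and Vim had overlapping groups. Of the 5 probe-sets of Fn1, fibronectin, 1 was not called (adjusted p = 0.172). Tnni3, cardiac troponin I, gave 2037, 2470, 2567, 3021 and 2450 on the CM arrays, against 430, 99.4, 195, 722, 766 and 572 on the fibroblast arrays. The groups did not overlap, and the log2 difference was 2.85 (SE 0.41, adjusted p = 8.30e-04). Pln, phospholamban, the inhibitor of the sarcoplasmic calcium pump, gave 836, 975, 947, 1057 and 740 on the CM arrays, against 139, 32.7, 41.1, 181, 200.2 and 237 on the fibroblast arrays. Col1a1, the alpha 1 chain of collagen type I, gave 1547, 2887, 2108, 995 and 3052 on the CM arrays, against 4917, 4315, 5242, 5697, 5004 and 5697 on the fibroblast arrays. Collagen signal was thus present on every CM array, and the log2 difference was -1.39 (SE 0.29, adjusted p = 0.00580). Col1a1 did not pass in a fit of the UV arrays alone (-1.80, adjusted p = 0.142).

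**Figure D1:**
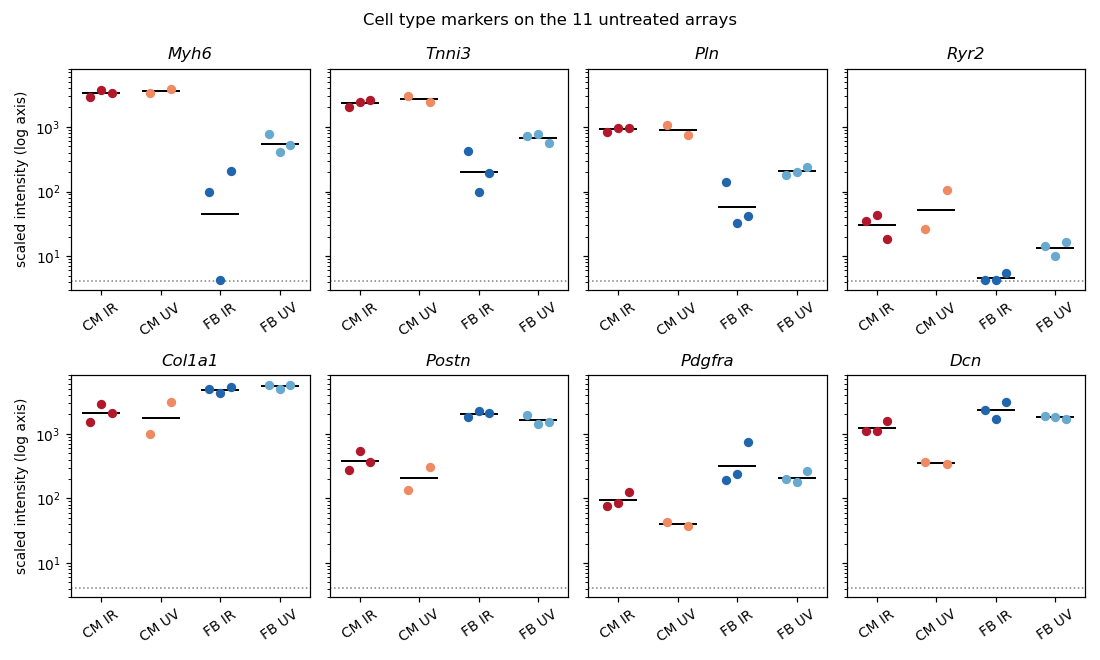
Scaled intensity (log axis) of 4 myocyte markers (top) and 4 fibroblast markers (bottom) on each of the 11 arrays. Points are arrays, bars are geometric means of CM IR, CM UV, FB IR and FB UV, and the dotted line is the floor of 4.17. The myocyte markers lie higher on all CM arrays and vary among the fibroblast arrays, with Myh6 between 4.2 and 787 there.

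Myocyte transcripts varied among the fibroblast cultures. The probe-set of Myh6, the alpha heavy chain of cardiac myosin, gave 2896, 3736, 3319, 3380 and 3928 on the CM arrays, against 99.1, 4.2, 208, 787, 407 and 521 on the fibroblast arrays. The first 3 fibroblast values are FB IR and the last 3 FB UV, and every FB UV value was above every FB IR value. All Myh6 probe-sets share probes within the myosin family, so Myh6 and Myh7, the beta heavy chain, were not separated. Myl2, the regulatory myosin light chain of the ventricle, gave 4917, 4917, 4678, 5242 and 5242 on the CM arrays, against 1856, 290, 649, 2896, 2688 and 2528 on the fibroblast arrays. The mean scaled intensity of Myl2 in CM UV was 194% of that in FB UV by this probe-set. By its dimmer probe-sets it was 182% and 390%, so the size of the difference depends on the probe-set. In a fit of the IR arrays alone, neither Myh6 (6.06, adjusted p = 0.0695) nor Myl2 (2.61, adjusted p = 0.0742) passed. In the joint fit of 4 groups both passed within IR (6.22, adjusted p = 0.0102, and 2.78, adjusted p = 0.0100). Neither passed there within UV, where the differences were smaller (2.73, adjusted p = 0.241, and 0.96, adjusted p = 0.364).

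In the 3 lists of sarcomere genes no member was lower. Over the brightest probe-set of all 4736 genes, 15.1% were higher and 16.1% lower, with a median log2 difference of 0. Of the thick filament and its myosin light chains, 6 of 7 genes were higher (median 2.81), and of the thin filament 8 of 9 (median 1.57). Titin, Ttn, was not called (0.09, adjusted p = 0.35), nor was the fast skeletal troponin I, Tnni2 (0.00, adjusted p = 0.71). Of the Z-disc and associated proteins, 11 of 13 were higher (median 3.27), and dystrophin, Dmd (-0.54, adjusted p = 0.48), and Pdlim3 (0.27, adjusted p = 0.53) were not called.

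Among the thin filament genes, Tnni1, the slow skeletal troponin I that the fetal heart also makes, gave 1810, 1817, 1794, 1688 and 1936 on the CM arrays, against 17.7, 12, 44.4, 38.1, 46.6 and 51.3 on the fibroblast arrays. The CM arrays were alike and the groups far apart, with a difference of 61.1-fold (log2 5.93, SE 0.34, adjusted p = 6.95e-06). Acta1, skeletal alpha-actin, is part of the fetal programme of the heart. It gave 295, 470, 524, 976 and 1461 on the CM arrays, against 54.1, 21.8, 50.5, 47.7, 32.1 and 45.1 on the fibroblast arrays (log2 4.06, SE 0.37, adjusted p = 6.51e-05). Tpm1, a tropomyosin, was higher by its brightest probe-set (1.98, SE 0.32, adjusted p = 0.00159), but of its 5 probe-sets 3 were higher, 1 lower and 1 not called, so they disagreed.

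At the Z-disc, Csrp3, the muscle LIM protein, gave 610, 1098, 1029, 1447 and 1360 on the CM arrays, against 92.2, 30.9, 55.9, 111, 102 and 117 on the fibroblast arrays (log2 3.87, SE 0.27, adjusted p = 1.75e-05). Des, desmin, the intermediate filament of muscle, gave 1457, 2205, 2390, 1972 and 3319 on the CM arrays, against 100, 6.2, 154, 142, 76.6 and 97 on the fibroblast arrays (log2 5.08, SE 0.76, adjusted p = 0.00105). The wide spread of the fibroblast arrays, with 6.2 on FB IR number 2, goes with the large SE. In a fit of the IR arrays alone Des did not pass (5.42, adjusted p = 0.0686). Within IR in the joint fit of 4 groups it did (5.43, adjusted p = 0.00940). Ldb3, a Z-disc protein that binds alpha-actinin, was 201 to 411 on the CM arrays, against 12 to 55 on the fibroblast arrays (log2 3.57, SE 0.29, adjusted p = 3.95e-05).

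Promoters of the sarcomere genes that were higher are shown because these genes moved together. Of 25 such genes, 19 have a sequence in the RefSeq promoter table (GRCr8), as have 15 of the 24 collagen and matrix glycoprotein genes that were lower. In the 250 bases before the annotated start, on both strands, a CArG box (the element that serum response factor binds) was found for Acta1, Ldb3 and Myl3, 3 of the 19, and for none of the 15, while 1.5% of all 33469 promoters hold one. CAGCTG, an E-box, was found for 8 of the 19 and 3 of the 15 (12% of all promoters), TATAAA for 2 and 2 (12.9%), AGATAA for 3 and none (10.3%), CCAAT for 6 and 6 (34%) and GGGCGG for 8 and 9 (30.5%). A gene was counted if any of its promoter entries held the motif, while the percentages are over single entries, so these are unlike measures. A match is a description of the letters, and binding was not measured. The 150 bases before the start are given below for Acta1 (chr19:68784195-68784344, minus strand), Ldb3 (chr16:9924680-9924829, minus strand), Myl3 (chr8:119616944-119617093, plus strand) and, of the matrix genes, Col11a1 (chr2:204508986-204509135, plus strand), with CArG box, TATAAA and GGGCGG matches in capitals.
Acta1: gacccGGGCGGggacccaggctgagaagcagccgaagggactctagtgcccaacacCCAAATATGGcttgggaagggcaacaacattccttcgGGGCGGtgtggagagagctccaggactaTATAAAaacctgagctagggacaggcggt
Ldb3: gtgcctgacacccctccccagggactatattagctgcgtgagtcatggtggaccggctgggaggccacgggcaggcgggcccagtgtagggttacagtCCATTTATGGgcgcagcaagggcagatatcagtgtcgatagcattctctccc
Myl3: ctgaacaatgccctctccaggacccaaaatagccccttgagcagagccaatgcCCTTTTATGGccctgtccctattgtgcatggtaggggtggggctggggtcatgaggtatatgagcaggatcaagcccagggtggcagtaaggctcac
Col11a1: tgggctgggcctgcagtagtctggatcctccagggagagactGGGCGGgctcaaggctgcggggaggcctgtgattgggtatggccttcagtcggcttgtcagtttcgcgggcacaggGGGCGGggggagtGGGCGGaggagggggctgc
The CArG boxes begin 94, 52 and 97 bases before the start in Acta1, Ldb3 and Myl3, and the TATAAA of Acta1 at 29 bases. Myl3, the essential light chain of ventricular myosin, was 3052 to 3868 on the CM arrays, against 116 to 1009 on the fibroblast arrays (log2 2.81, SE 0.43, adjusted p = 0.00119).

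Genes of calcium handling were divided. Of 18, 7 were higher, 1 was lower and 10 were not called (median 0.27). Among the members that were higher were genes of the sarcoplasmic store. Casq2, the calcium-binding protein of the store, gave 669, 992, 951, 1019 and 1155 on the CM arrays, against 92, 34.6, 115, 150, 115 and 142 on the fibroblast arrays (log2 3.33, SE 0.30, adjusted p = 6.87e-05). Ryr2, the release channel, was 18.3 to 105 on the CM arrays and 4.2 to 16.8 on the fibroblast arrays (log2 2.39, SE 0.40, adjusted p = 0.00180), and did not pass in a fit of the UV arrays alone (adjusted p = 0.179). Atp2a2, the pump that refills the store, was higher by its brightest probe-set (2.63, SE 0.33, adjusted p = 3.80e-04), and of its 4 probe-sets 2 were higher, 1 lower and 1 not called. Itpr1, a receptor for inositol trisphosphate, was lower (-1.21, adjusted p = 0.0379), and the sodium-calcium exchanger Slc8a1 was not called by its brightest probe-set (0.32, adjusted p = 0.35) but was higher by 3 of its 5.

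Of 17 cardiac channels, pumps and gap junction genes, 9 were higher and 1 lower (median 0.89). Kcnq1, a potassium channel of repolarisation, gave 45.2, 46.7, 27.2, 41.9 and 90.8 on the CM arrays and lay at the floor on all 6 fibroblast arrays, a difference of at least 11.2-fold between the group means. Gja1, the connexin of ventricular gap junctions, was 110 to 234 on the CM arrays and 13.7 to 39.9 on the fibroblast arrays (log2 2.93, SE 0.30, adjusted p = 1.27e-04). Gja5, a connexin of the atria and the conduction system, had 1 probe-set at 216 to 498 against 6.1 to 29.1 (log2 4.67, SE 0.42, adjusted p = 6.36e-05), while its brightest probe-set differed by only 0.55 (adjusted p = 0.00867) and the other one was not called. Kcnd3, a channel of the transient outward current, was lower (-2.05, SE 0.61, adjusted p = 0.0336), with 4.2 to 10.8 on the CM arrays and 5.8 to 57.1 on the fibroblast arrays, which overlapped.

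Natriuretic peptides were split by gene. Nppa, the atrial peptide, gave 3838, 4071, 4387, 3868 and 4609 on the CM arrays, against 1717, 768, 1534, 1912, 1672 and 2306 on the fibroblast arrays (log2 1.44, SE 0.22, adjusted p = 0.00129). Nppb, the B-type peptide, was 2222 to 3484 on the CM arrays, against 133 to 704 on the fibroblast arrays (log2 2.80, SE 0.37, adjusted p = 5.16e-04). Nppc, the C-type peptide, which vessel wall and stromal cells make, went the other way, with 5.2 to 13.2 on the CM arrays and 15.7 to 63.2 on the fibroblast arrays (log2 -2.05, SE 0.37, adjusted p = 0.00303). Npr3, the clearance receptor, was also lower (-0.93, SE 0.22, adjusted p = 0.0118), and Npr1, the guanylyl cyclase receptor, was not called (0.30, adjusted p = 0.49).

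Genes of energy metabolism were mostly higher in CM-enriched fractions. Of 26 genes of fatty acid uptake and oxidation, 16 were higher and 1 was lower (median 1.08). Cpt2, which completes the transfer of fatty acids into mitochondria, gave 296, 352, 332, 270 and 336 on the CM arrays, against 93.2, 76.8, 59.5, 80.3, 71.8 and 84.3 on the fibroblast arrays (log2 2.04, SE 0.12, adjusted p = 8.12e-06). Cpt1a, the liver form of the rate-limiting carnitine transferase, and Cpt1b, the muscle form, were both higher, by 1.73 (SE 0.11, adjusted p = 8.31e-06) and 1.64 (SE 0.10, adjusted p = 1.00e-05). Cd36, the fatty acid translocase, was higher by 3.57 (SE 0.28, adjusted p = 2.97e-05) by 1 probe-set, and at least 26.9-fold higher by another, with 80.6 to 162 on the CM arrays and the floor on all fibroblast arrays. Lpl, lipoprotein lipase, was the member that was lower (-1.22, SE 0.32, adjusted p = 0.0191).

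Of 16 genes of the tricarboxylic acid cycle, 13 were higher and none lower (median 1.16), and of 52 genes of the respiratory chain and ATP synthase, 42 were higher and 1 lower (median 0.93). Cox6a2, the heart and muscle form of a cytochrome oxidase subunit, gave 3868, 3928, 3655, 3097 and 3818 on the CM arrays, against 401, 115, 382, 799, 768 and 669 on the fibroblast arrays (log2 3.14, SE 0.41, adjusted p = 4.94e-04). Its widely expressed counterpart Cox6a1 was 2399 to 3296 on the CM arrays, against 1186 to 1775 on the fibroblast arrays (log2 0.93, SE 0.09, adjusted p = 8.55e-05). Both forms were thus higher, by unequal amounts. Sdha, a subunit of succinate dehydrogenase, was higher by 1.10 (SE 0.10, adjusted p = 6.52e-05).

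Of 24 creatine kinase and glycolysis genes, 14 were higher and 1 lower (median 0.77), and isoforms differed. Ckm, the muscle creatine kinase, gave 524, 418, 350, 671 and 926 on the CM arrays, against 67.5, 33, 36.2, 184, 224 and 123 on the fibroblast arrays (log2 2.81, SE 0.30, adjusted p = 1.50e-04), while the brain form Ckb was not called (-0.30, adjusted p = 0.37). Pygm, the muscle glycogen phosphorylase, was higher by 3.21 (SE 0.26, adjusted p = 3.68e-05), and the liver form Pygl was lower (-2.00, adjusted p = 0.0458). The heart subunit of lactate dehydrogenase, Ldhb, was higher by 2.27 (SE 0.20, adjusted p = 5.46e-05). Widely used glycolytic enzymes such as Pkm (0.11, adjusted p = 0.70) and Aldoa (-0.12, adjusted p = 0.74) were not called.

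All 4 small heat shock proteins were higher, with a median of 1.67. Hspb6 gave 427, 430, 489, 543 and 818 on the CM arrays, against 65.7, 57.7, 68.8, 114, 106 and 97.9 on the fibroblast arrays (log2 2.74, SE 0.11, adjusted p = 1.12e-06). Cryab, alpha-B crystallin, a chaperone of desmin and titin, was higher by 1.12 (SE 0.12, adjusted p = 1.38e-04).

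Genes of the extracellular matrix were mostly lower in CM-enriched fractions. None of 12 collagens was higher and 7 were lower (median -1.17). Col11a1, a chain of the minor fibrillar collagen XI, gave 8.8, 15.9, 15.1, 5 and 7.5 on the CM arrays, against 381, 402, 274, 374, 401 and 334 on the fibroblast arrays, 38.7-fold lower in CM-enriched fractions (log2 -5.27, SE 0.27, adjusted p = 4.29e-06). A second Col11a1 probe-set lay at the floor on all CM arrays and was at least 18.2-fold lower. Col1a2, the partner of Col1a1, was 949 to 2299 on the CM arrays, against 3682 to 4609 on the fibroblast arrays (log2 -1.43, SE 0.22, adjusted p = 0.00132).

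Of 30 matrix glycoproteins and proteoglycans, 17 were lower and 4 higher (median -0.88). Eln, elastin, gave 266, 713, 653, 155 and 419 on the CM arrays, against 2974, 3619, 3588, 4019, 4050 and 5004 on the fibroblast arrays (log2 -3.35, SE 0.39, adjusted p = 2.35e-04). Postn, periostin, a matricellular protein of fibroblasts, was 133 to 535 on the CM arrays, against 1398 to 2222 on the fibroblast arrays (log2 -2.67, SE 0.26, adjusted p = 9.12e-05). Lox, lysyl oxidase, which cross-links collagen and elastin, was lower (log2 -2.76, SE 0.37, adjusted p = 5.38e-04), and its relative Loxl1 also passed (-1.93). The 4 that were higher were Gpc1 (1.64), Spp1 (1.74), Lamb2 (0.51) and Tnc (0.48), which code for a glypican, osteopontin, a laminin chain and tenascin C.

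Proteases that act on the matrix, and their inhibitors, went in both directions, with 10 of 26 lower and 5 higher (median -0.60). These shares are 38.5% and 19.2%, against 16.1% and 15.1% of all genes. Serpine2, the inhibitor protease nexin 1, gave 33.2, 32.5, 30.5, 15.9 and 14.8 on the CM arrays, against 536, 595, 435, 503, 545 and 465 on the fibroblast arrays (log2 -4.47, SE 0.19, adjusted p = 1.64e-06). The 2 lowest values were both CM UV. Mmp2, gelatinase A, and Mmp14, which activates it, were both lower, with log2 differences of -2.47 (SE 0.15, adjusted p = 8.16e-06) for Mmp2 and -2.10 (SE 0.18, adjusted p = 5.27e-05) for Mmp14. Of the plasminogen activators, Plat, the tissue type, was lower (-2.95, SE 0.15, adjusted p = 4.43e-06), whereas Plau, the urokinase type, was higher (2.57, SE 0.53, adjusted p = 0.00616). Timp3, an inhibitor of metalloproteinases, was higher (2.68, SE 0.34, adjusted p = 4.22e-04), and Timp2 was lower (-1.33, SE 0.14, adjusted p = 1.40e-04).

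**Figure D2:**
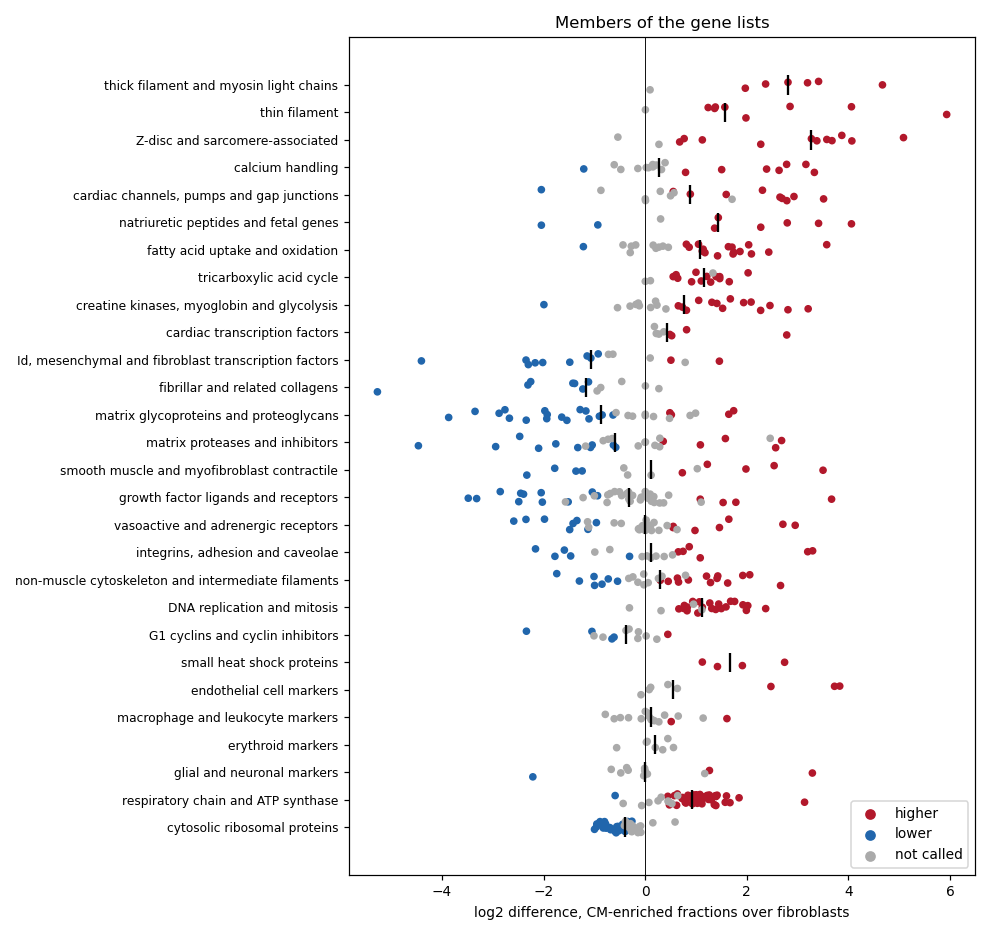
Log2 difference, CM-enriched fractions over cultures of fibroblasts (horizontal axis), of the members of 28 gene lists (rows). Each point is a gene shown through its brightest probe-set, coloured by its call at an adjusted p under 0.05, and black bars are list medians. Medians run between -1.17 for collagens and 3.27 for Z-disc genes.

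Transcription factors of both lineages were on the array. Of 8 cardiac factors 4 were higher, and of these only Nkx2-5, a homeobox factor of the heart, had groups that did not overlap. It gave 315, 468, 420, 419 and 574 on the CM arrays, against 70.6, 40.3, 77.5, 75.5, 64.3 and 61.2 on the fibroblast arrays (log2 2.79, SE 0.19, adjusted p = 1.49e-05). Gata4, a zinc finger factor of heart development, was 226 to 447 on the CM arrays and 194 to 314 on the fibroblast arrays and was not called (0.36, adjusted p = 0.245).

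Of 15 Id, mesenchymal and fibroblast factors, 9 were lower and 2 higher (median -1.07). Tcf21, a basic helix-loop-helix factor of the cardiac fibroblast lineage, gave 22.8, 90.6, 99.5, 5.1 and 4.7 on the CM arrays, against 439, 543, 201, 438, 441 and 601 on the fibroblast arrays (log2 -4.41, SE 0.79, adjusted p = 0.00275). The CM UV values, near the floor, were below all CM IR values. In a fit of the IR arrays alone this probe-set did not pass (-2.67, adjusted p = 0.0908). Within IR in the joint fit of 4 groups it did (-2.62, adjusted p = 0.0167). Wt1, a factor of the epicardium, was 4.2 to 11.3 on the CM arrays, against 37.1 to 47.2 on the fibroblast arrays (log2 -2.35, SE 0.24, adjusted p = 1.40e-04). The Id proteins, which block helix-loop-helix factors, were divided, with Id1 higher (1.46, SE 0.24, adjusted p = 0.00187, 1 of its probe-sets not called), and Id2 (-2.17, SE 0.20, adjusted p = 7.65e-05) and Id3 (-1.14, adjusted p = 0.0109) lower.

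Of 43 growth factor ligands and receptors, 11 were lower (25.6%) and 4 higher (9.30%), against 16.1% and 15.1% of all genes. Igf2, a growth factor of fetal tissues, gave 1410, 443, 422, 576 and 103 on the CM arrays, against 17, 39.2, 74.6, 32.5, 28.2 and 25.1 on the fibroblast arrays (log2 3.67, SE 0.58, adjusted p = 0.00140), while its other 5 probe-sets were not called. H19, a non-coding RNA of the same imprinted locus, was 130 to 1488 on the CM arrays, against 16 to 37.6 on the fibroblast arrays by its brightest probe-set (log2 4.14, SE 0.50, adjusted p = 3.21e-04). By the other probe-set H19 gave 2433, 666, 531, 1059 and 85.6 on the CM arrays, against 4.2, 4.2, 7, 5.6, 4.2 and 4.9 on the fibroblast arrays (log2 6.86, SE 0.70, adjusted p = 1.24e-04). Both genes were highest on CM IR number 1 and lowest, among the CM arrays, on CM UV number 2. In a fit of the UV arrays alone H19 passed by neither probe-set (3.67, adjusted p = 0.0710, and 5.78, adjusted p = 0.0585). Within UV in the joint fit of 4 groups H19 passed by both (3.80, adjusted p = 0.0130, and 5.95, adjusted p = 0.00598). Igf1 was lower in CM-enriched fractions by its brightest probe-set (-2.86, SE 0.37, adjusted p = 4.86e-04), as were the platelet-derived growth factor receptors Pdgfra (-2.05, SE 0.35, adjusted p = 0.00213) and Pdgfrb (-2.49, SE 0.37, adjusted p = 0.00102). Bmp4 was 4.2 to 24.1 on the CM arrays and 54 to 188 on the fibroblast arrays (log2 -3.32, SE 0.50, adjusted p = 0.00106). Nrg1, neuregulin, was 4.9 to 41.2 on the CM arrays and 62.1 to 306 on the fibroblast arrays by 1 of its 7 probe-sets (log2 -3.48, SE 0.69, adjusted p = 0.00467). Of the 7, 5 were lower and 2 not called.

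Of 33 vasoactive genes and receptors, 7 were higher (21.2%) and 8 lower (24.2%), against 15.1% and 16.1% of all genes. Adrb1, the main beta-adrenergic receptor of cardiac myocytes, was 40.5 to 67.8 on the CM arrays and 4.2 to 14.5 on the fibroblast arrays (log2 2.95, SE 0.30, adjusted p = 1.34e-04). Chrm2, the muscarinic receptor of the heart, was also higher (1.65, SE 0.21, adjusted p = 4.03e-04). Agtr1a, the type 1 angiotensin receptor, went the other way, with 91.5, 146, 193, 62.2 and 39.8 on the CM arrays, against 442, 540, 1356, 323, 448 and 366 on the fibroblast arrays (log2 -2.59, SE 0.33, adjusted p = 4.31e-04). Edn1, endothelin 1, was lower (-1.49, SE 0.41, adjusted p = 0.0241), with overlapping groups.

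Genes of DNA replication and mitosis were higher in CM-enriched fractions: 21 of 25 were higher, none was lower and the median was 1.12. Ccnb1, cyclin B1, which drives entry into mitosis, gave 102, 120, 104, 156 and 114 on the CM arrays, against 32.4, 28.1, 24.8, 31.8, 34.7 and 29.9 on the fibroblast arrays (log2 1.99, SE 0.11, adjusted p = 5.75e-06). Top2a, topoisomerase II alpha, was 153 to 204 on the CM arrays, against 29.4 to 57.4 on the fibroblast arrays (log2 2.02, SE 0.22, adjusted p = 1.90e-04). The helicase subunit Mcm6 was higher by 1.92 (SE 0.22, adjusted p = 2.33e-04). Genes of G1 went otherwise, with 1 of 13 higher (7.69%) and 4 lower (30.8%), against 15.1% and 16.1% of all genes. Cdkn2b, the cyclin-dependent kinase inhibitor p15, was 13.4 to 30.3 on the CM arrays and 92.7 to 141 on the fibroblast arrays (log2 -2.34, SE 0.21, adjusted p = 6.51e-05). In fits of 1 experiment alone 16 (IR) and 12 (UV) genes of the replication list were higher. The fibroblasts were confluent at the time, the CM-enriched fractions hold non-myocytes, and 3 of 8 endothelial markers were also higher in them, as given below. The part of these in the cell cycle difference was not tested.

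Of 43 cytosolic ribosomal protein genes (named Rpl or Rps, pseudogenes included), 27 were lower and none higher (median -0.39). Rpl35 gave 1568, 1449, 1435, 1521 and 1272 on the CM arrays, against 2499, 2924, 2180, 2470, 2477 and 2581 on the fibroblast arrays (log2 -0.80, SE 0.08, adjusted p = 1.40e-04). The differences were small, with no member beyond 2-fold, and the number lower was 7 in a fit of the IR arrays alone and 17 in a fit of the UV arrays alone.

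Contractile genes of smooth muscle and myofibroblasts were divided, with 5 of 13 higher and 4 lower. Cnn1, calponin 1, was 283 to 546 on the CM arrays, against 26.5 to 47.3 on the fibroblast arrays (log2 3.50, SE 0.18, adjusted p = 4.24e-06). Its relative Cnn3 (-1.36, SE 0.18, adjusted p = 5.16e-04) and caldesmon, Cald1 (-2.33, SE 0.30, adjusted p = 4.27e-04), were lower. Acta2, smooth muscle alpha-actin, was 1323 to 2390 on the CM arrays and 2230 to 3380 on the fibroblast arrays and was not called by its brightest probe-set (-0.42, adjusted p = 0.078), but lower by its other 2.

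Of 19 integrin, adhesion and caveolar genes, 6 were higher (31.6%) and 5 lower (26.3%), against 15.1% and 16.1% of all genes. Itga7, the laminin-binding integrin of muscle, was 1131 to 2128 on the CM arrays, against 67.4 to 411 on the fibroblast arrays (log2 3.29, SE 0.43, adjusted p = 4.96e-04), and Itga8 was lower (-2.16, SE 0.21, adjusted p = 8.86e-05). Cav3, the caveolin of muscle, was higher by all 3 of its probe-sets, between 3.20 and 4.07. Of 29 genes of the non-muscle cytoskeleton, 13 were higher and 7 lower. S100a4, often used as a fibroblast marker, was higher in CM-enriched fractions, with 3034 to 3774 on the CM arrays and 444 to 1029 on the fibroblast arrays (log2 2.06, SE 0.20, adjusted p = 1.07e-04).

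Several further genes were among the 15 probe-sets with the largest difference in a direction, most of them outside these groups. Higher were Sparcl1, a matricellular protein (5.42), the tubulin Tuba4a (5.39), the lectin Reg3b (5.25), Ddc, which decarboxylates aromatic amino acids (4.52), the nuclear pore protein Nup210 (4.17), the water channel Aqp1 (4.11) and the ligand Efna1, by 2.53 by its brighter probe-set and at least 17.8-fold by the other. Reg3b gave 1233, 913, 1057, 783 and 797 on the CM arrays, against 21.6, 8.3, 59.9, 54, 14.9 and 27 on the fibroblast arrays (SE 0.51, adjusted p = 9.74e-05). Dbh, which converts dopamine to noradrenaline, was also higher (log2 3.29, SE 0.22, adjusted p = 1.42e-05), with 41.4 to 68.7 on the CM arrays and 4.2 to 8.2 on the fibroblast arrays.

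Lower were Cyp7b1, an oxysterol hydroxylase (-5.17), the glypican Gpc6 (-3.87), the basement membrane protein Nid1 (-3.87, a member of the matrix glycoprotein list), neuropeptide Y, Npy (-3.78), the pseudokinase Trib3 (-3.74, its dimmer probe-set not called), the oxidised lipoprotein receptor Olr1 (-3.73, and -3.53 by its brightest probe-set), the collagen receptor Ddr2 (-3.45) and the proteoglycan Aspn (-3.45). Cyp7b1 gave 30.4, 8.5, 11.4, 5.2 and 4.2 on the CM arrays, against 260, 210, 1789, 176, 225 and 179 on the fibroblast arrays (SE 0.57, adjusted p = 1.97e-04). The value of 1789 is FB IR number 3, the array that stood apart. The same array was highest for Olr1, with 1429 against 187 to 445 on the other fibroblast arrays.

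Markers of other cell types were measured in the same fit. Of 8 endothelial markers 3 were higher and none lower. The summed intensity of the list overlapped (160 to 1377 on the CM arrays and 80 to 343 on the fibroblast arrays). Pecam1, a marker of endothelial cells, gave 783, 193, 185, 217 and 25.9 on the CM arrays, against 7.6, 12.6, 18.8, 13, 8.9 and 10.6 on the fibroblast arrays (log2 3.83, SE 0.67, adjusted p = 0.00249). It was highest on CM IR number 1 and lowest, among the CM arrays, on CM UV number 2, as were H19, Igf2, Plau and Sparcl1. Whether these genes come from endothelial cells was not tested. Of 18 leukocyte markers 2 were higher, Itgam at 4.5 to 7.7 against the floor and Cd53 at 12 to 98.6 against 6.2 to 41, with Cd53 not passing without CM UV number 1 (adjusted p = 0.0539), and the summed intensity of the list overlapped (325 to 475 on the CM arrays and 246 to 495 on the fibroblast arrays). None of 7 erythroid markers was called. Of 13 glial and neuronal markers, Dbh and Gap43 were higher and Pmp22 lower, and the glial factor Sox10 lay at the floor on all 11 arrays. Over all genes 15.1% were higher and 16.1% lower. The share higher was 37.5% for endothelial markers, but 11.1% for leukocyte and 15.4% for glial and neuronal markers, near or under that of all genes.

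The 2 kinds of experiment gave the population difference on separate arrays. Within IR 1785 probe-sets (20.4%) were called, 900 (10.3%) higher and 885 (10.1%) lower, and within UV 1633 (18.7%), 811 (9.28%) higher and 822 (9.41%) lower. Of the 2545 probe-sets called over both, 2544 had the same direction within IR and within UV, which a call over both largely fixes. Called within each were 1097 in the same direction and 4 in opposite directions. In fits of 1 experiment alone, 24 (IR) and 21 (UV) of 143 named probe-sets lost their call. These fits use fewer arrays than the joint fit of 4 groups, from which the calls within IR and within UV above come. Beside those given above, the fit of the IR arrays did not call Cald1 (adjusted p = 0.0517), Col1a2 (adjusted p = 0.0632), Pdgfra (adjusted p = 0.121) or Nrg1 (adjusted p = 0.166). The fit of the UV arrays did not call Wt1 (adjusted p = 0.0526), Adrb1 (adjusted p = 0.0581), Efna1 by its dimmer probe-set (adjusted p = 0.0857), Sparcl1 (adjusted p = 0.117), Pecam1 (adjusted p = 0.183) or Gap43 (adjusted p = 0.249), and neither fit called Cd53 or Itgam. Across all probe-sets the log2 differences within IR and within UV correlated at 0.77, a description over genes, which are not independent replicates.

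**Figure D3:**
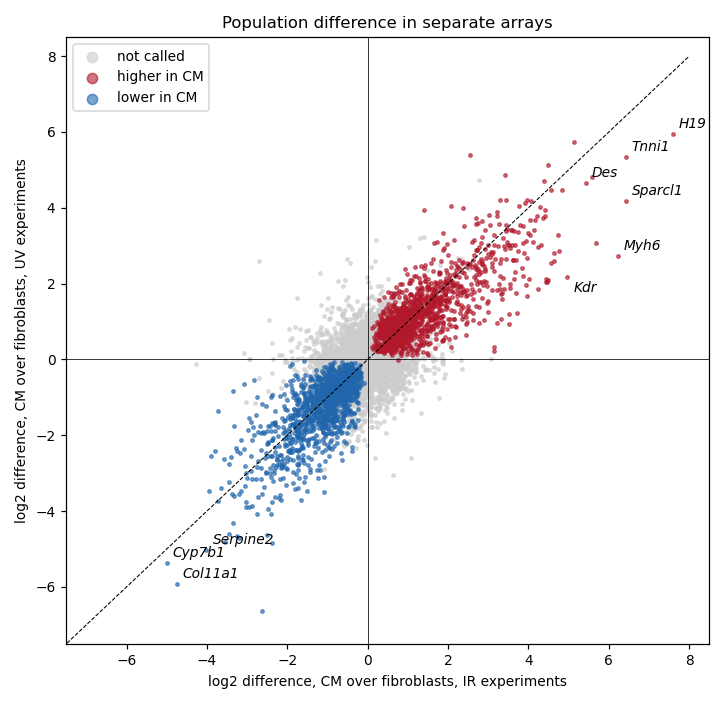
Log2 difference, CM-enriched fractions over cultures of fibroblasts, on the IR arrays (horizontal axis) and on the UV arrays (vertical axis). Each of the 8740 points is a probe-set, coloured by its call over all 11 arrays, and the dashed line marks equal differences. Coloured points lie in the 2 quadrants of equal direction with 1 exception, which a call over both experiments largely fixes, and Kdr, H19 and Myh6 lie below the line.

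The difference between the experiments was itself tested. It passed for 10 probe-sets (0.114%), 6 of which were higher in UV, but for 85 higher and 32 lower without CM UV number 2. Kdr, the receptor of vascular endothelial growth factor on endothelial cells, gave 28.6 and 22.6 in CM UV, against 153, 121 and 119 in CM IR, and 7.1, 5.4 and 4.6 in FB UV, against 4.2 on all FB IR arrays. CM over fibroblasts was thus smaller in UV than in IR (log2 difference, UV minus IR, -2.78, SE 0.30, adjusted p = 0.0194). It did not pass with a pseudocount (adjusted p = 0.0955), with all 35 arrays in 1 fit (adjusted p = 0.0672), or without FB IR number 1 (adjusted p = 0.0598), FB IR number 2 (adjusted p = 0.0560) or FB UV number 2 (adjusted p = 0.0834).

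Within CM-enriched fractions, UV sham over IR sham gave 34 probe-sets higher and 36 lower (0.801% in all), and within cultures of fibroblasts 11 (0.126%) and 14 (0.160%), 0.286% in all. These counts turned on single arrays. In CM-enriched fractions they were 122 higher without CM UV number 2, 70 lower without CM UV number 1, 11 higher without FB IR number 1 and 10 lower without FB UV number 2. In cultures of fibroblasts they were 56 higher without FB UV number 1, 67 lower without FB IR number 3, 2 higher without CM IR number 1 and 2 lower without FB UV number 3. A few were genes of the matrix. For CM UV over CM IR, 0 of 12 collagens, 1 of 30 matrix glycoproteins and proteoglycans and 2 of 26 matrix proteases and inhibitors passed. Dcn, decorin, a small proteoglycan, gave 369 and 335 in CM UV, against 1102, 1117 and 1585 in CM IR (log2 -1.83, SE 0.25, adjusted p = 0.0246). Mmp2 gave 156 and 205 in CM UV, against 420, 373 and 435 in CM IR, and Serpine2 was also lower in CM UV (-1.06, adjusted p = 0.0184). According to the methods, the share of CM was higher in fractions of the UV than of the IR experiments. Sham-UV cultures were also rinsed before their medium was returned, and the study used different labelling kits. The part of these in the differences was not tested. The difference in these genes between CM UV and CM IR minus that in fibroblasts did not pass for Dcn, Mmp2 or Serpine2.

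Among the genes of mitosis, Kifc1, a minus-end directed kinesin, gave 10.5 and 9.6 in CM UV, against 69.8, 66.3 and 35.5 in CM IR (log2 -2.45, adjusted p = 0.0261). The list as a whole moved little, with a median UV minus IR of -0.17 for the CM arrays and -0.09 for the fibroblast arrays. Within cultures of fibroblasts, the thick filament list had a median of 1.77 in FB UV over FB IR, but none of its brightest probe-sets passed, and Myh6 passed by another probe-set (3.12, adjusted p = 0.0444). That probe-set gave 201, 206 and 343 in FB UV, against 40.6, 13.4 and 39.8 in FB IR.

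**Figure D4:**
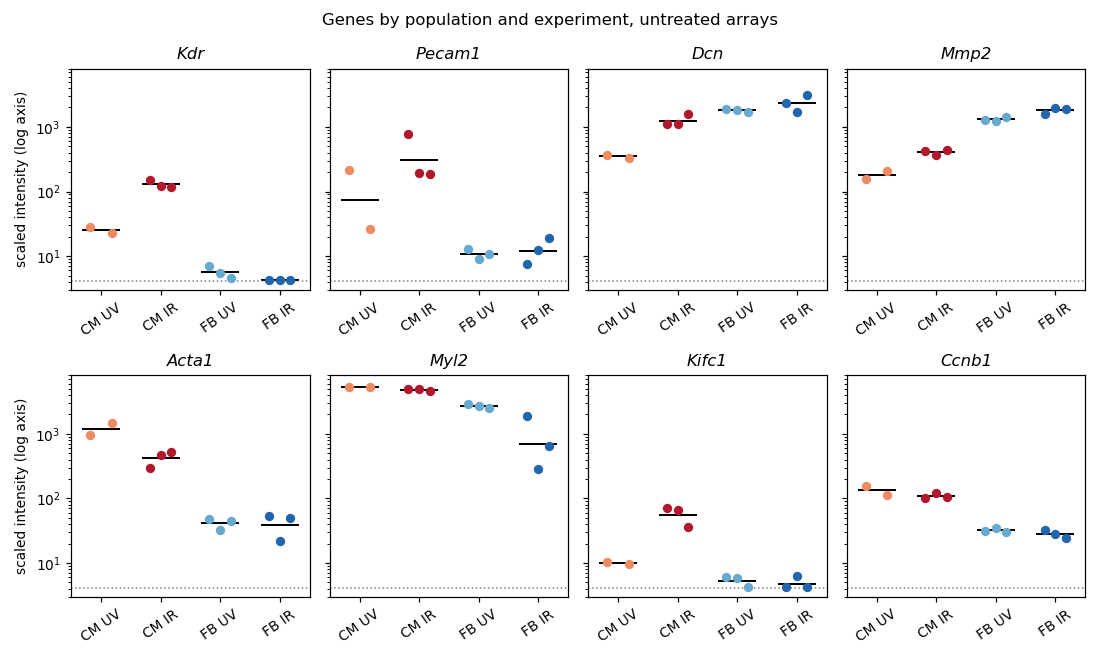
Scaled intensity (log axis) of 8 genes on each of the 11 arrays in CM UV, CM IR, FB UV and FB IR, with geometric means as bars and the floor of 4.17 as a dotted line. Kdr, Dcn and Kifc1 are lower in CM UV than in CM IR (Kdr 28.6 and 22.6 against 119 to 153), and Ccnb1 is alike in both (102 to 156).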

How the data were processed

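RNA of the 11 untreated cultures was hybridised to rat genome arrays (chip A of the RG-U34 set, 8799 probe-sets). The deposited values are linear intensities, 1 per probe-set and array, at 1 of 2 scaling targets, and the software behind them is not given in the sources used here. The methods describe gcrma, VSN and a probe-level linear model, which the authors' deposited intensities are not. Here each array was scaled to a 75th percentile of 100, floored at the 20th percentile of all values (4.17), log2-transformed and quantile normalised. After 59 controls were left out, 8740 probe-sets were fitted with limma 3.58.1 (R 4.3.3) on population and experiment, with Benjamini-Hochberg adjustment at 0.05, and a 4-group fit gave the values within IR and UV and their difference. The number of arrays limits the precision. The methods speak of independent experiments. Deviations of CM and fibroblast arrays with equal numbers in the labels correlated at -0.076 to 0.058 (5 pairs). The deviations of the 2 CM UV arrays mirror each other, so these pairs are not independent. With so few arrays per group, the correlations cannot decide whether arrays of equal number were paired. A probe-set was named through the platform annotation (7006 with 1 symbol, 308 with several, 1426 with none). "At least" folds, from group means, were given where the dimmer population lay at the floor on all arrays. Named were the 15 probe-sets with the largest difference in each direction, markers, and members of 28 gene lists. Members and lists were chosen with earlier results of these data known. Fits were tested on simulated data, and 24 alternatives were run.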

Additional observations from a re-analysis of the deposited data

Results flagged for a closer look

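The difference between the UV and the IR experiments in CM-enriched fractions over cultures of fibroblasts (log2, UV minus IR) passed the test of the difference itself for 10 probe-sets. Of these, 4 had means under 2 times the floor in every group. Kdr gave -2.78, with 28.6 and 22.6 in CM UV against 119 to 153 in CM IR. A2m gave 2.44 by 1 of its 6 probe-sets, not the brightest, with 19.3 and 21.4 in CM UV against 4.2 to 5.9 in CM IR. Pc, pyruvate carboxylase, gave 2.25, with 4.2 to 4.5 in FB UV against 15.4 to 20.4 in FB IR. Il9 gave -1.70, with 11.8 to 15.6 in FB UV against the floor in FB IR. Tmpo gave -0.79, Sult1c2a 0.31, Ocm 0.20 and Ghrh 0.16, all with CM and fibroblast values under 8. A pair of probe-sets with no gene name gave 2.04 (17.3 and 23.1 in CM UV against the floor in CM IR) and -2.03 (4.6 and 5.2 in CM UV against 17.4 to 21.7 in CM IR). With a pseudocount none of the 10 passed. Groups of 2 or 3 arrays were too small for a test of outlying samples.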

How the results depend on the processing

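Of 143 named probe-sets called, 119 to 143 kept direction and call under 22 alternatives. With CM UV number 1 as the only CM array (assumed to vary like the fibroblasts), 94 did, 48 lost the call and Tmpo reversed (-0.036, adjusted p = 0.755), and among the brighter probe-sets 122 of 122 did. The calls higher and lower (1221 and 1324) became 668 and 596 with the IR arrays alone, 698 and 698 with the UV arrays alone, and 566 and 421 with CM UV number 1 alone, where the share higher was 57.3% against 48.0%. Leaving out 1 array gave 1070 to 1278 and 1152 to 1472. Within IR it gave 712 to 940 and 635 to 1146, and within UV 575 to 938 and 554 to 1027. With the replicate number as a block, 900 were higher and 950 lower, 1789 of 2545 calls were kept, and 132 of the 143 kept theirs. No pair of equal numbers correlated over 0.1, which with so few arrays per group does not exclude pairing. List members higher and lower (209 and 117) became 138 and 51 with the IR arrays alone, 82 and 46 with CM UV number 1 alone, 179 and 89 with the replicate block, and 195 to 211 and 100 to 124 without 1 array.

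The UV minus IR difference (6 higher, 4 lower) gave 11 and 2 with scaling to the 75th percentile only, 0 and 0 with a pseudocount or among the brighter probe-sets, 13 higher with a higher floor, 11 and 22 with all 35 arrays, 3 higher with no variance trend, and 6 to 85 and 3 to 32 without 1 array, most without CM UV number 2. CM UV over CM IR (34 and 36) gave 61 higher with scaling to the 75th percentile only, 9 and 23 with a pseudocount, 21 lower with a higher floor, 4 and 23 among the brighter probe-sets, 170 and 182 with all 35 arrays, and 11 to 122 and 10 to 70 without 1 array. FB UV over FB IR (11 and 14) gave 18 higher with a pseudocount, 33 higher among the brighter probe-sets, 5 lower with scaling to the 75th percentile only, 7 lower with scaling to the trimmed mean only, 85 and 89 with all 35 arrays, and 2 to 56 and 2 to 67 without 1 array. The causes were not tested. Leaving out 1 array lost the call of Mef2d in 9, and of Nr4a1, Lum and Tmpo in 7, of 11 cases. Values at the floor (15.4% to 23.4% of an array) have no order.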
